A study of Mus musculus with 18 samples.

Results

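The serum response genes described here were followed across mouse embryonic fibroblast lines that carry an additional copy of a chromosome: Egr1, Egr2, Egr3, Ier2, Ier3, Klf2, Klf4, Klf6, Dusp1 and Srf. They were taken as a named list of immediate early genes other than the AP-1 genes, chosen with earlier results of these data known. Every probe set of each gene was read. The 10 genes had 15 probe sets, out of 12393 genes that had a probe set naming a single gene, and 9 of the 10 were tested among 7381 genes. Egr3 was at 1.36 to 1.41 on every array, below the mean log2 value of 4 required for testing. The study hybridised 1 Affymetrix array for each of 18 fibroblast lines: 4 lines trisomic for chromosome 13 (Ts13), 3 for chromosome 16 (Ts16), 1 for chromosome 1 (Ts1), 1 for chromosome 19 (Ts19) and 9 lines with the normal chromosome number (Wt). All lines, Wt included, were grown for 2 passages in medium with fetal calf serum, and no line was labelled as starved or freshly stimulated. The labels do not say how the trisomies were obtained, nor the strain or the embryonic age. A number opens each sample title, its meaning is not stated, and every trisomic line shares it with at least 1 Wt line. The 3 Ts16 lines and Wt replicates 1 to 3 are numbered 89 or 92, the 4 Ts13 lines share their numbers with Wt replicates 4 to 7, Ts19 with Wt replicate 8 and Ts1 with Wt replicate 9. P-values measure the spread between these lines, and no label says how the lines of a group are related.

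Immediate early genes are transcribed within minutes of serum or growth factor exposure without new protein synthesis, through ERK signalling to the serum response factor SRF and its ternary complex cofactors. Their transcripts are short-lived, so their level in growing fibroblasts follows recent signalling. EGR proteins are zinc finger activators of the growth response, Krüppel-like factors (KLFs) bind GC-rich promoters, IER2 and IER3 are small growth and survival regulators, and DUSP1 is the phosphatase that switches MAP kinases off.

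Promoter sequence was at hand for 7 of the 10 genes, in RefSeq windows of GRCm38.p6 that run from 250 bases before a start to 50 after it. The motifs searched were 3, read on both strands: the CArG box bound by SRF, the cAMP response element TGACGTCA and the EGR site GCGTGGGCG. Srf held a pair of CArG boxes beginning 82 and 62 bases before its start. Egr2 held 2 separate CArG boxes, in 4 of its 5 windows. A CArG box was found in 1.63% of all 32851 windows and for 1.71% of the 6068 tested genes with a window. Dusp1 held a cAMP response element beginning 143 bases before its start, a motif present in 1.79% of windows and for 3.68% of those genes. The windows of Klf2, Klf4, Klf6 and Ier3 held none of the 3 motifs. The EGR site was in no member's window, in 0.612% of all windows and for 1.45% of those genes. These matches are shown because they are the elements through which serum signals are known to reach such genes, with the motif in capitals.

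Srf, chr17:46556215-46556244, minus strand: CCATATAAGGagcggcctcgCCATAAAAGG
Egr2, chr10:67537787-67537816, plus strand: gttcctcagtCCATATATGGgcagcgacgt
Egr2, chr10:67537484-67537513, plus strand: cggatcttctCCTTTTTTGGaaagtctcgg
Dusp1, chr17:26508568-26508647, minus strand: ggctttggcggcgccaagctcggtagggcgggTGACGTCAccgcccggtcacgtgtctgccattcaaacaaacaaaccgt

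All values below are deposited log2 expression values, and levels are compared between arrays of a probe set, never between genes. The arrays correlated at 0.915 to 0.997 with each other, and their medians lay between 5.11 and 5.91. The 3' to 5' signal of 3 trisomic arrays stood apart: the Gapdh control probes at the 3' end exceeded those at the 5' end by 6.94 in Ts13 replicate 3, 5.57 in Ts13 replicate 4 and 6.55 in Ts16 replicate 1, against -0.20 to 1.41 on the other 15 arrays. They are called 3'-biased here, and whether the difference arose in the RNA or in its labelling is not known. All 7 fibroblast markers passed the filter on low values, as did all 7 smooth muscle and pericyte markers, 3 of 13 macrophage, 2 of 6 epithelial, 0 of 7 endothelial and 0 of 5 skeletal muscle markers. The summed macrophage markers were at a log2 level of 6.90 to 10.72 in Ts13, 6.89 to 7.31 in Ts16, 6.67 in Ts1, 6.88 in Ts19 and 6.65 to 10.09 in Wt. The high values were those of Ts13 replicate 4 and Wt replicate 8, and the second highest were 7.35 in Ts13 and 7.58 in Wt. The part of these cells in the results below was not tested. In such bulk samples, fewer cells of a type and less RNA per cell cannot be told apart.

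Egr1, the best known immediate early transcription factor of this family, was low on every array numbered 89 or 92, trisomic or not. It was at 10.95, 10.67 and 10.98 in the 3 Ts16 lines, against 10.89, 10.80 and 10.65 in the 3 Wt lines of the same numbers. The other 12 arrays lay between 12.03 and 13.09, so the 2 sets of title numbers did not overlap. Among the 9 tested members, Egr1 and Klf6 were lower on all 6 arrays of 89 and 92 than on all 12 others. This pattern was found in 66 of 7381 tested genes (0.894%), while 27 genes were higher without overlap. Of the pathway lists described below, 4 genes did the same: the stress-induced factor Atf3, the survival gene Mcl1, the G protein regulator Rgs2 and Cald1, which encodes caldesmon. Klf6 showed the pattern only on its main probe set, at most 11.80 on the arrays of 89 and 92 against at least 11.89. On Klf6 probe sets 1427742_a_at and 1418280_at the ranges overlapped. There the Wt lines of 89 and 92 averaged 11.02 and 9.28, above the 10.74 and 8.99 of the other Wt lines.

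**Figure D1:**
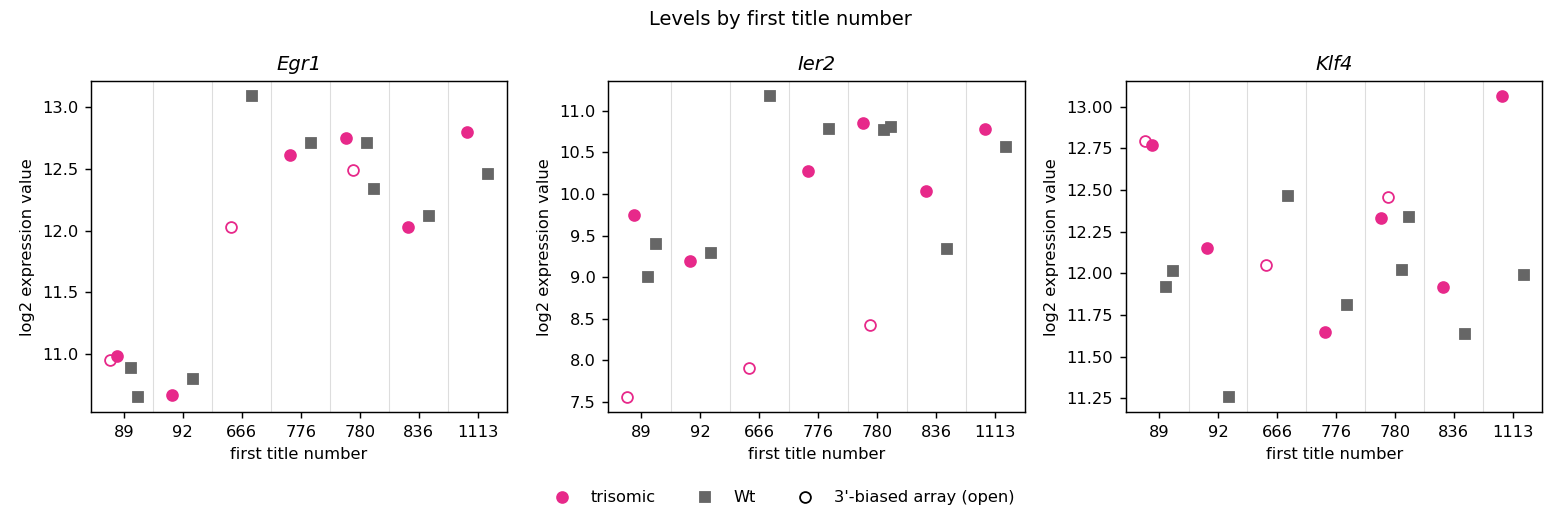
Log2 expression values of Egr1, Ier2 and Klf4 (y axis) by the first number of the sample title (x axis), with trisomic lines as circles left of Wt lines as squares and the 3'-biased arrays open. Egr1 lay at 10.65 to 10.98 on all 6 arrays of numbers 89 and 92 and at 12.03 or above on the others, Ier2 was lowest on the 3 open circles, and Klf4 of each Ts16 line lay above the Wt lines of its number.

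All Ts16 lines carry number 89 or 92, and the Ts16 value of Egr1 moved with the choice of Wt lines. Against all 9 Wt lines the difference was -1.11 ± 0.46 (SE, limma adjusted p = 0.63), and against the 3 Wt lines of the same numbers it was 0.09 ± 0.19 (SD, n = 3 lines). None of the 9 members passed in trisomy 16 against Wt, where 0.0406% of tested genes did, and 3 of the 9 had an unadjusted p under 0.05, as had 6.99% of tested genes. In Ts13, Egr1 was at 12.61, 12.75, 12.49 and 12.03, against a median of 12.34 in Wt (10.65 to 13.09). The difference was 0.50 ± 0.41 (adjusted p = 0.49), and it was -0.24 against the 4 Wt lines of the same numbers, which lay at 12.34 to 13.09. Ts1 at 12.03 and Ts19 at 12.80 lay inside the Wt range. Over all trisomic lines, each set against the Wt of its own number, Egr1 differed by -0.05 with a 95% interval of -0.34 to 0.24.

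Egr2, a relative of Egr1 that in other settings directs myelination, had the widest spread of the members. Its main probe set was at 11.25, 9.85, 11.26 and 11.32 in Ts13 and at 10.31, 9.13 and 7.54 in Ts16, against a median of 10.24 in Wt (6.83 to 11.61). The low ends were Ts16 replicate 3 and Wt replicate 3, which both carry number 89. The second probe set was also lowest on those arrays, at 5.91 in Ts16 replicate 3 and 5.99 in Wt replicate 3. The differences from Wt, 0.99 ± 0.68 in Ts13 (adjusted p = 0.40) and -0.93 ± 0.76 in Ts16 (adjusted p = 0.79), did not pass. Against the Wt lines of the same numbers they were 0.18 and 0.04, and the Ts16 value ranged from -1.59 to -0.20 when 1 array was left out. The SD of Egr2 over the 9 Wt lines was 1.36, above that of 97.7% of tested genes. Egr3 gave no level above background on its single probe set in any group.

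Ier2, a small nuclear growth response protein, was lowest on the 3'-biased arrays. It was at 10.27 and 10.85 in Ts13 replicates 1 and 2, at 8.43 and 7.91 in replicates 3 and 4, and at 7.56, 9.19 and 9.74 in Ts16, against a median of 10.57 in Wt (9.01 to 11.18). The 3 lowest of the 18 arrays were the 3'-biased ones, and these differed by -2.36, -3.26 and -1.65 from the Wt of their numbers, while the other 6 trisomic arrays were within -0.50 to 0.70 of theirs. The Ts13 difference was -0.76 ± 0.58 over all arrays (adjusted p = 0.44) and 0.44 without the 3'-biased arrays (adjusted p = 0.86). In Ts16 the difference was -1.30 ± 0.64 (adjusted p = 0.72), -0.66 without the 3'-biased array (adjusted p = 0.75) and -0.41 against the Wt lines of the same numbers. Like Egr1, Ier2 was lower in the Wt lines of numbers 89 and 92 (9.01 to 9.40) than in most other Wt lines (9.34 to 11.18), although these ranges overlapped through Wt replicate 9.

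Ier3, a survival regulator induced by serum, stress and NF-kB, was low in all Ts16 lines. It was at 10.75, 10.73 and 10.76 in Ts16, against 11.96, 11.92 and 11.22 in the Wt lines of the same numbers. All Wt lines except replicate 9, at 10.66, lay above the Ts16 lines. Against all Wt lines the difference was -1.01 ± 0.26 (adjusted p = 0.19), and the Ts16 lines differed by -0.84, -1.19 and -0.83 from the Wt of their numbers, a mean of -0.95 ± 0.20 (SD, n = 3 lines). The side of the threshold turned on a single Wt line: without Wt replicate 9 the adjusted p was 0.024, where 0.108% of tested genes passed. In Ts13, Ier3 was at 12.26, 12.49, 12.05 and 12.05, against a median of 11.87 in Wt (10.66 to 12.38). That difference was 0.46 ± 0.24 (adjusted p = 0.27). Ts1 was at 11.83 and Ts19 at 12.46, and Ts1 exceeded the Wt line of its number, replicate 9, by 1.17.

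**Figure D2:**
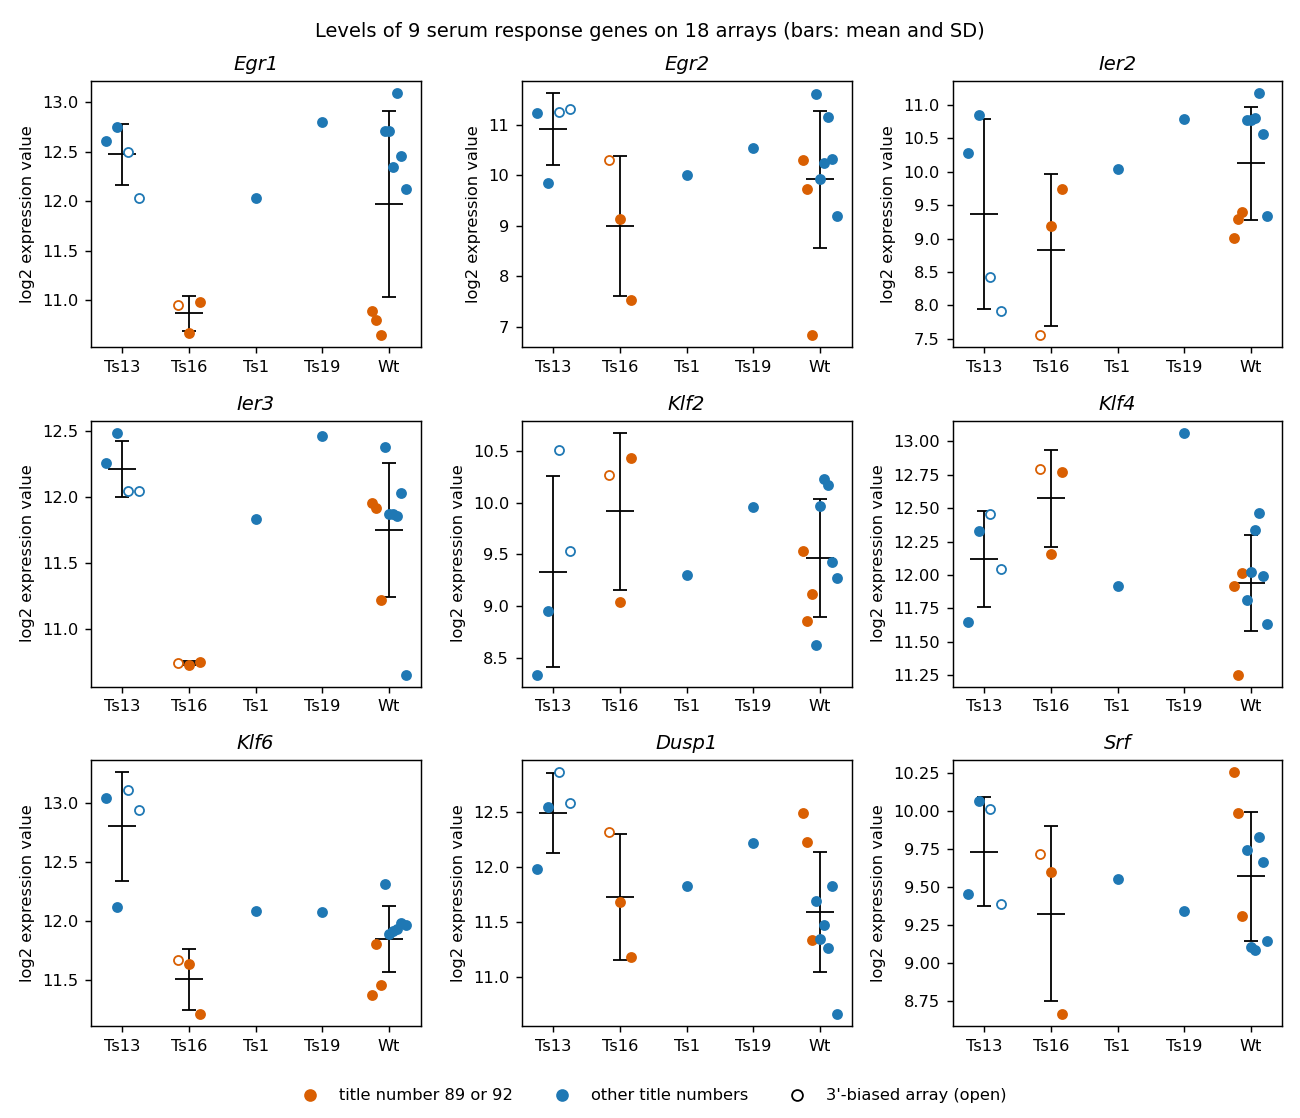
Log2 expression values (y axis) of the 9 tested members on their main probe sets, with the trisomic groups left of Wt (x axis), black bars for the mean and SD of groups with more than 1 line, orange for arrays of title number 89 or 92 and open circles for 3'-biased arrays. Klf6 in 3 of 4 Ts13 lines lay above all Wt lines, Ier3 in Ts16 lay at 10.73 to 10.76, and Egr1 split by colour.

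Klf4, a regulator of cell cycle exit and one of the reprogramming factors, lay above the Wt of the same number in Ts16 and in Ts19. It was at 12.80, 12.15 and 12.77 in Ts16, against 11.92, 11.26 and 12.02 in the Wt lines of the same numbers, and each Ts16 line lay 0.83, 0.90 or 0.80 above them. The second probe set gave 1.27, 1.10 and 0.76 for the same lines. On the main probe set, the difference from all 9 Wt lines (11.26 to 12.46) was 0.63 ± 0.23 (adjusted p = 0.53). The test across genes did not call it. On the second probe set it was 0.37 ± 0.42 (adjusted p = 0.87). There Ts16 averaged 9.88, the Wt lines of 89 and 92 averaged 8.84 and the other Wt lines 9.85. Against only the Wt lines of the same numbers the main probe set differed by 0.84, with a 95% interval of 0.24 to 1.45. Pairing to Wt replicates 1 to 3, from the data rather than the labels, gave an interval of 0.56 to 1.12 (adjusted p = 0.19). Since the pairing was taken from these same arrays, that interval can be too narrow. In that paired fit, 9.44% of tested genes had an unadjusted p under 0.05. Ts19 had the highest Klf4 of the 18 arrays, at 13.06, against 11.99 in the Wt line of its number. On the second probe set the same pair stood at 10.79 and 9.69. In Ts13, Klf4 was at 11.65, 12.33, 12.46 and 12.05, a difference of 0.18 ± 0.21 (adjusted p = 0.62).

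Klf2, the flow- and statin-responsive factor that restrains proliferation in other cell types, also lay above its Wt lines in Ts16. It was at 10.27, 9.04 and 10.44 in Ts16, against 9.53, 8.86 and 9.12 in the Wt lines of the same numbers, with differences of 0.95, 0.18 and 1.12. Against all Wt lines (8.62 to 10.23) the difference was 0.45 ± 0.44 (adjusted p = 0.81). In Ts13 it was at 8.33, 8.95, 10.51 and 9.53, spread more widely than Wt, and differed by -0.13 ± 0.39 (adjusted p = 0.86). Centring each array on its median turned that to 0.16. This scaling put the median difference of all tested genes at 0.31 in Ts13 and 0.15 in Ts16, against 0.01 and -0.05 without it.

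The counts that follow use the main probe sets. Relative to the Wt of the same number, Klf2 and Klf4 were higher and Ier3 and Srf lower in 3 of 3 Ts16 lines. Of all tested genes, 12.1% were higher and 10.9% lower in all 3. In Ts13, Klf6 and Dusp1 were higher in 4 of 4 lines and no member was lower in all 4, while 14.7% of tested genes were higher and 10.7% lower in all 4. Klf6 lies on chromosome 13, where 177 of 277 tested genes (63.9%) were higher in all 4. These differences share Wt lines where lines share a number.

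**Figure D3:**
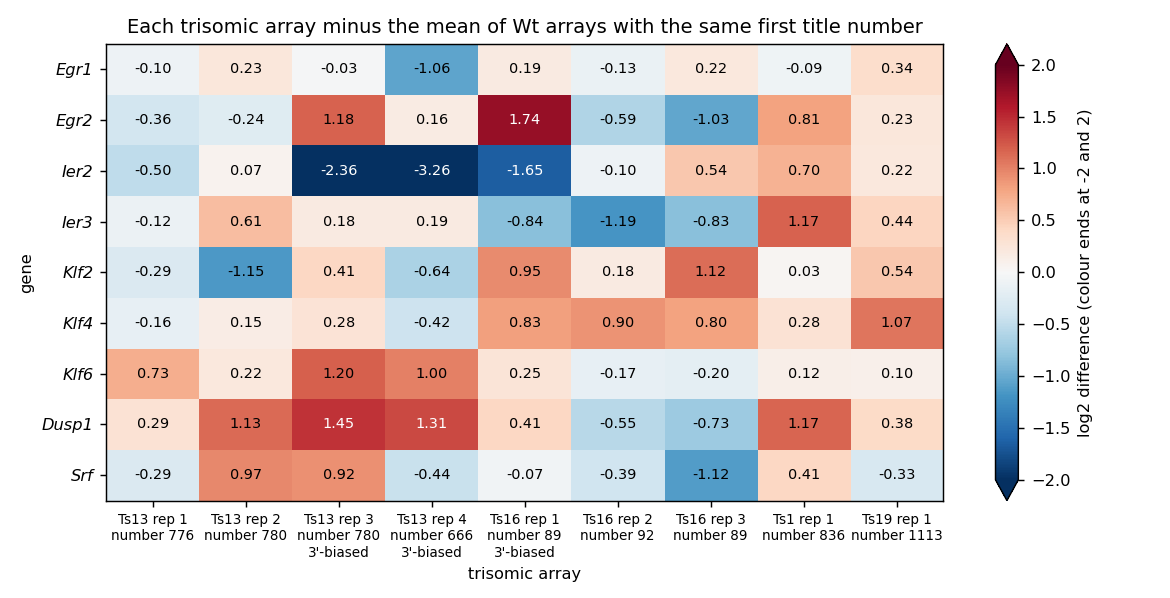
Log2 difference of each trisomic array (columns) from the mean of the Wt arrays with the same first title number, for the 9 tested members (rows); red is higher and blue lower in the trisomic line, and the number in each cell is the difference. On the main probe sets shown, Klf6 and Dusp1 were above 0 in all Ts13 lines. Klf4 was 0.80 to 0.90 in all Ts16 lines, and Ier2 was lowest on the 3'-biased arrays.

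Klf6, a Krüppel-like factor that restrains growth by inducing the cell cycle inhibitor p21, lies on chromosome 13 and is the only member on a chromosome that is trisomic in any group. Its main probe set was at 13.04, 12.12, 13.11 and 12.94 in Ts13, against a median of 11.92 in Wt (11.37 to 12.31). In Ts13, 3 lines lay above every Wt line, and replicate 2 lay within the Wt range. Klf6 rose by 0.95 ± 0.20 in Ts13 (adjusted p = 0.021) and was the 1 member of 9 that passed, where 1.76% of tested genes passed. It lay 0.73, 0.22, 1.20 and 1.00 above the Wt of the same numbers, a mean of 0.79 (adjusted p = 0.15 with those Wt lines alone, where 0.339% of tested genes passed). The 277 tested genes of chromosome 13 had a median difference of 0.64, 76 of them exceeded Klf6 and 40 passed. Set against 1.5-fold, the ratio of gene copies in a trisomy, Klf6 exceeded it by 0.37 on the log2 scale (p adjusted over the tested genes of chromosome 13 = 0.31).

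The call on Klf6 differed between probe sets and was lost without the 3'-biased arrays, which also removes 2 of the 4 Ts13 lines. On probe set 1427742_a_at, Ts13 was at 11.92, 12.34, 10.43 and 9.71, against a median of 11.00 in Wt, a difference of 0.26 ± 0.48 (adjusted p = 0.77). On probe set 1418280_at it was at 10.24, 10.75, 8.93 and 9.26, against a median of 9.28, a difference of 0.70 ± 0.37 (adjusted p = 0.27). Ts13 replicates 1 and 2, which are not 3'-biased, were above the Wt of their numbers on all 3 probe sets, by 0.73 and 0.22 on the main one, 0.71 and 1.16 on the second and 1.02 and 1.27 on the third. The 3'-biased replicates 3 and 4 were 1.20 and 1.00 above on the main probe set but at -0.75 and -1.25 from those Wt lines on 1427742_a_at, and at -0.55 and 1.31 on 1418280_at. Without the 3'-biased arrays the main difference was 0.73 (adjusted p = 0.35, with 0.19% of tested genes passing), without Ts13 replicate 3 or without replicate 4 no member passed, and averaging the probe sets gave 0.64 (adjusted p = 0.17). In Ts16, the main probe set was at 11.67, 11.64 and 11.21, against 11.37, 11.80 and 11.46 in the Wt lines of those numbers. On 1427742_a_at the 3 Ts16 lines differed from the Wt of their numbers by -1.50, -0.35 and -0.19. On 1418280_at they differed by -1.05, -0.37 and -0.81, and the first value of each is the 3'-biased array. Neither passed against all Wt lines (adjusted p = 0.87 and 0.84). On main probe sets, 10.9% of tested genes were lower in all 3 Ts16 lines.

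**Figure D4:**
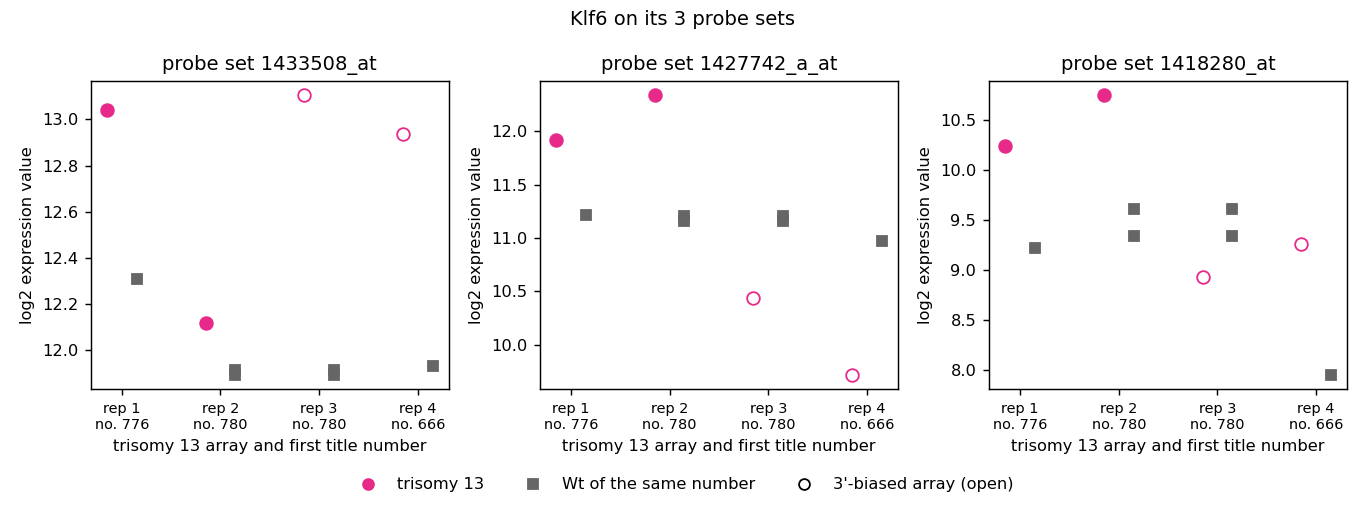
Log2 expression values of Klf6 (y axis) on its 3 probe sets for each Ts13 array (circles, open where 3'-biased), left of the Wt arrays of the same title number (squares, with the pair of number 780 drawn for both replicates 2 and 3). Replicates 1 and 2 lay above their Wt arrays on every probe set, and replicates 3 and 4 did so together only on 1433508_at.

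Dusp1, the nuclear phosphatase that ends MAP kinase signalling, lay above the Wt of the same number in every Ts13 line. It was at 11.98, 12.54, 12.86 and 12.58 in Ts13, against a median of 11.47 in Wt (10.66 to 12.49). Against the Wt lines of the same numbers, at 11.26 to 11.69, the 4 Ts13 lines were 0.29, 1.13, 1.45 and 1.31 higher. Of all tested genes, 14.7% were higher than the Wt of the same number in all 4. The values of 1.45 and 1.31 were those of the 3'-biased replicates 3 and 4. The difference from all Wt lines was 0.90 ± 0.29 (adjusted p = 0.11) and did not pass. It had an unadjusted p of 0.0067. Without the 3'-biased arrays it was 0.67, with a 95% interval of -0.11 to 1.45 (adjusted p = 0.59). In Ts16 Dusp1 was at 12.32, 11.68 and 11.18, against 12.49, 12.23 and 11.34 in the Wt of those numbers, and the value was highest on the 3'-biased array. That difference was 0.14 ± 0.32 from all Wt lines (adjusted p = 0.92) and -0.29 from the Wt lines of the same numbers.

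Srf, the factor that binds the CArG boxes printed above, did not pass in Ts13 or in Ts16. Its main probe set was at 9.45, 10.06, 10.01 and 9.39 in Ts13 and at 9.71, 9.60 and 8.66 in Ts16, against a median of 9.67 in Wt (9.09 to 10.25). The differences were 0.16 ± 0.26 in Ts13 (adjusted p = 0.74) and -0.24 ± 0.29 in Ts16 (adjusted p = 0.85), with 95% intervals of -0.40 to 0.72 and -0.87 to 0.38. The Ts16 lines differed by -0.07, -0.39 and -1.12 from the Wt of their numbers, a mean of -0.53. Against only the Wt lines of the same numbers, that difference had a 95% interval of -1.31 to 0.26. Paired to Wt replicates 1 to 3, from the data rather than the labels, the interval was -0.98 to -0.07 (adjusted p = 0.44). It can be too narrow, since the pairing was taken from these same arrays. In that paired fit, 9.44% of tested genes had an unadjusted p under 0.05. The second Srf probe set was much dimmer and was lowest on Ts13 replicates 3 and 4, at 4.13 and 4.19, both 3'-biased, against 4.88 to 7.16 in Wt. On that probe set all 3 Ts16 lines were below the Wt of their numbers, by differences of -1.34, -0.44 and -0.93.

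Setting Ts13 directly against Ts16 separated Ier3 and, on its main probe set alone, Klf6. Ier3 was higher by 1.47 ± 0.30 in Ts13 than in Ts16 (adjusted p = 0.019), with 12.05 to 12.49 in Ts13 and 10.73 to 10.76 in Ts16. Klf6 was higher by 1.29 ± 0.25 (adjusted p = 0.014), with 12.12 to 13.11 in Ts13 and 11.21 to 11.67 in Ts16. These 2 of 9 members passed, where 2.43% of tested genes did. On the other Klf6 probe sets the Ts13 and Ts16 ranges overlapped. The difference there was 0.76 ± 0.61 on 1427742_a_at (adjusted p = 0.56) and 1.26 ± 0.46 on 1418280_at (adjusted p = 0.18). Ts13 and Ts16 lines share no title number, so in this comparison trisomy and number cannot be told apart. With first title number as a block, which uses each group's own Wt lines, the differences were 1.17 for Ier3 (adjusted p = 0.30) and 0.83 for Klf6 (adjusted p = 0.65). Egr1 differed by 1.60 ± 0.53 without passing (adjusted p = 0.11) and by -0.33 with that block. For Klf4 the difference was -0.45 ± 0.27 (adjusted p = 0.39) and -0.88 with the block (95% interval -1.41 to -0.35, adjusted p = 0.32).

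Across all 9 trisomic lines, each against the Wt of its own number, none of 8 members passed in limma and 0% of 6187 tested genes did. An unadjusted p under 0.05 was found for 1 member and for 6.47% of tested genes. Klf6 was not among the 8 members, since genes of the trisomic chromosomes were left out. Klf4 had the smallest p, with a difference of 0.42 ± 0.15 (95% interval 0.08 to 0.75, adjusted p = 0.67) and was higher in 7 of 9 lines. Dusp1 differed by 0.54 ± 0.26 (95% interval -0.01 to 1.09, adjusted p = 0.67) and was also higher in 7 of 9. Without the 3'-biased arrays the Dusp1 difference was 0.27 (95% interval -0.35 to 0.89, adjusted p = 0.74). Ier2 differed by -0.71 ± 0.43 (adjusted p = 0.67) and by 0.17 without the 3'-biased arrays. The remaining members differed by -0.05 to 0.21.

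Ts1 and Ts19 have 1 line each, assumed in the fit to vary like the other groups. No member passed in trisomy 1 against Wt, where 0.0406% of tested genes passed, and none in trisomy 19 against Wt, where 0% did. In the 1 Ts19 line, 8 of 9 members had a positive difference from Wt on their main probe sets, led by Klf4 at 1.13. The median over all tested genes was -0.08 in Ts19, and the share of all tested genes above 0 was not counted. On the main probe sets, the Ts1 line differed by -0.16 to 0.24 from the mean of all Wt lines for every tested member. On the other probe sets it differed by -0.80 and 0.06 for Klf6, 0.52 for Klf4, 0.52 for Srf and 0.28 for Egr2. Against its own Wt line, replicate 9, it was higher by 1.17 for Ier3, by 1.17 for Dusp1 and by 0.70 for Ier2. Wt replicate 9 had the lowest Ier3 and the lowest Dusp1 of the 18 arrays, at 10.66 for each probe set.

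The rest of the serum response was read from lists of pathway genes. Of 34 tested early serum genes outside the AP-1 group, 1 rose in Ts13 and none fell: Sgk1, a serum- and glucocorticoid-induced kinase, by 1.18 ± 0.27 (adjusted p = 0.041), where 1.76% of all tested genes passed. With the first title number as a block, and likewise without the 3'-biased arrays, its adjusted p was 0.27. It was above the Wt of the same number in 4 of 4 lines, by a mean of 0.90, and at -0.55 from it in Ts16. Against all Wt lines, the median over that list was 0.16 in Ts13 and -0.40 in Ts16, where none passed. Over all tested genes it was 0.01 and -0.05. Whether the list is also low in Ts16 against only the Wt of the same numbers was not tested. Over all trisomic lines, each against the Wt of its own number, the list median was 0.13, against -0.03 over all tested genes. That comparison held 29 genes of the list, since genes of the trisomic chromosomes were left out. Between Ts13 and Ts16, where 2.43% of all tested genes passed, 3 of the 34 were higher in Ts13: Sgk1 by 2.14 ± 0.35 (adjusted p = 0.0099), the polo-like kinase gene Plk2, which lies on chromosome 13, by 1.59 ± 0.37 (adjusted p = 0.033) and the cytokine gene Lif by 3.19 ± 0.81 (adjusted p = 0.048). These calls were lost with the first title number as a block, under which no tested gene was called higher: the adjusted p was 0.46 for Sgk1, 0.45 for Plk2 and 0.97 for Lif. From the Wt of the same numbers, Plk2 differed by 0.65 in Ts13 and -0.70 in Ts16, and Lif by 0.78 in Ts13 and -0.39 in Ts16.

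None of the 6 tested AP-1 and ATF genes passed in any comparison, and 0 in Ts13 and 1 in Ts16 had an unadjusted p under 0.05. Atf3 had the lowest p in Ts16 (-1.74 ± 0.68, adjusted p = 0.59) and is among the genes that split by title number. Of 11 tested dual specificity phosphatases and ERK feedback genes, 1 was lower in Ts13 than in Ts16: Spry1, a receptor kinase inhibitor, by -1.92 ± 0.45 (adjusted p = 0.036). With the first title number as a block this was -1.13 (adjusted p = 0.65), and from the Wt of the same numbers Spry1 differed by -0.99 in Ts13 and 0.14 in Ts16. Against Wt, Spry1 differed by -1.29 ± 0.36 and Dusp10, a stress kinase phosphatase, by 1.497 ± 0.41 in Ts13, both with an adjusted p of 0.074. None passed among 5 tested SRF cofactors, 15 contractile and cytoskeletal SRF targets, 2 EGR corepressors, 7 other KLF genes and 7 ERK pathway genes in the 6 comparisons. At an unadjusted p under 0.05, 5 contractile targets, 1 KLF gene (Klf9) and 1 ERK pathway gene (Map2k1) were counted in Ts13, where 21.9% of all tested genes were, and none of these lists' genes in Ts16, where 6.99% were. In the contractile list the median was -0.04 in Ts13 and -0.04 in Ts16. Genes of these lists without a single-gene probe set were not analysed here.

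Across the 18 arrays, the genes whose levels followed a member most closely are given as a description, since the arrays share title numbers and 3' bias. Egr1 was followed by Rps28, a ribosomal protein gene (r = 0.967), and this held over the 15 arrays without 3' bias (r = 0.967). Klf6 was followed by Tasor2, also on chromosome 13 (r = 0.889). For Dusp1 the closest were Inhba, the activin subunit gene on chromosome 13 (r = 0.871), and Ankrd1 (r = 0.869). Klf2 was closest to Pdgfrb, the PDGF receptor gene (r = 0.870), Klf4 to Prelp (r = 0.816), Ier3 to Pip5k1a (r = 0.875), Ier2 to Metap1d (r = 0.969), Egr2 to Riok2 (r = 0.913) and Srf to Atad3a (r = 0.865). Over the 15 arrays without 3' bias the closest gene was another one for 6 of the 9 members: Mtpn for Egr2 (r = 0.917), Fmod for Klf2 (r = 0.857), Psmb10 for Klf4 (r = 0.83), Tubb2b for Klf6 (r = 0.870), Ankrd1 for Dusp1 (r = 0.911) and Polr1d for Srf (r = 0.937). Among the members themselves, Klf2 and Klf4 correlated at 0.732, Egr2 and Klf6 at 0.704 and Dusp1 and Srf at 0.664. Egr1 and Ier2 correlated at 0.622 over 18 arrays and at 0.899 over the 15 without 3' bias.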

How the data were processed

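Total RNA from 18 fibroblast lines was labelled with biotin and hybridised to Affymetrix arrays, 1 per line, per the labels' protocols. The authors deposited log2 values for 22690 probe sets, made with affy and GCRMA per the submitters' processing notes; no version is named there. Their values ran from 0.97 to 16.57. Genes were named from 20380 probe sets with 1 gene, using the probe set with the highest mean. Genes with a mean of at least 4 (7381) were fitted with limma 3.58.1 in R 4.3.3 (lmFit, eBayes with trend; 5 groups sharing 1 spread), adjusted by Benjamini-Hochberg over all tested genes and called at 0.05, two-sided, after tests on simulated data. The comparison of all trisomic lines used the first title number as a block and left out chromosomes 1, 13, 16 and 19. The members and gene lists were chosen with earlier results of these data known. All members are named; of each list, genes that passed, up to 6, or otherwise up to 3 by p in Ts13 and Ts16 were eligible, and the 3 genes most correlated with each member. By replicate number, lines deviated together in Ts16 (correlations of 0.52, 0.41 and 0.58 with Wt replicates 1 to 3), from the data rather than the labels, and not in Ts13 (-0.26 to -0.03), where this pairs lines of different title numbers. By first title number, correlations were -0.10 to 0.36 in Ts13 and 0.05 and 0.41 in Ts16. The number of arrays limits precision.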

Additional observations from a re-analysis of the deposited data

Results flagged for a closer look

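Among 28 sets of member values with 4 to 10 arrays in a group, 3 held an array far from the others, and chance alone gives about 1 in 20. Egr2 on its main probe set was at 9.85 in Ts13 replicate 2, against 11.25 to 11.32 in the other 3 Ts13 lines. The same probe set was at 6.83 in Wt replicate 3, with the other Wt lines at 9.20 and above. Klf6 on probe set 1427742_a_at was at 9.12 in Wt replicate 9, against 10.74 to 11.34 in the other Wt lines. Between Ts13 and Ts16, Ier3 differed by 1.47 (adjusted p = 0.019) and Klf6 on its main probe set by 1.29 (adjusted p = 0.014).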

How the results depend on the processing

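Of 630 member differences recomputed without 1 array, 606 kept direction and side of the threshold, as did 366 of 422 under other alternatives. Part of the 630 left out an array of neither group compared, where the direction could not change. Calls in Ts13 fell to 0 with the mean of probe sets, either replicate block, only same-number Wt or the Gapdh covariate. They were also 0 without the 3'-biased arrays, alone or with same-number Wt (the latter chosen after seeing the data). Without 1 array they were 0 to 1 (0 without Ts13 replicate 3 or 4). Of all tested genes, 1.76% passed in the main fit and 1.47% with the mean of probe sets. The share was 0.0813% with the first-number block, 0.122% with the replicate-number block and 0.339% with same-number Wt. Without the 3'-biased arrays it was 0.19%, or 0.0406% with same-number Wt, and with the covariate 0.623%. Without Ts13 replicate 3 it was 0.555%, and without replicate 4 0.352%. Klf6 was called in Ts13 in 22 of 31 alternatives (adjusted p 0.0044 to 0.50), a count that includes the fits without 1 array. Some of those left out a Ts16, Ts1 or Ts19 array, which cannot change its difference from Wt. Calls between Ts13 and Ts16 were 1 (Ier3) with the mean of probe sets or median centring, and 0 with either replicate block. They were also 0 without the 3'-biased arrays (then 1.63 for Ier3, adjusted p 0.089, and 1.16 for Klf6, adjusted p 0.11). Without 1 array they were 0 to 2 (0 without Ts16 replicate 2). Of all tested genes, 2.43% passed here in the main fit, 2.07% with the mean of probe sets and 0.867% with median centring. The share was 0.0135% with the first-number block and 0% with the replicate-number block. It was 0.366% without the 3'-biased arrays and 0.352% without Ts16 replicate 2. Calls in Ts16 were 0 to 1 without 1 array (Ier3 without Wt replicate 9, where 0.108% of tested genes passed). The excess of Klf6 over 1.5-fold was -0.017 with same-number Wt without 3'-biased arrays. No replicate block added a call.

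These differences changed sign, none of them called, and the cause was not tested. In Ts13, with the block by first number or only same-number Wt, Egr1 was -0.24 and Klf4 -0.037, and with 3'-biased arrays also left out Egr1 was -0.031, Egr2 -0.19 and Klf4 -0.17. Ier2 in Ts13 was 0.44 without 3'-biased arrays and 0.18 with the Gapdh covariate. Klf2 in Ts13 was 0.16 with median centring, 0.30 with the replicate-number block and -0.52 to 0.20 without 1 array, and Srf was -0.31 with the mean of probe sets and -0.092 with the replicate-number block. In Ts16, with any first-number or paired block or same-number Wt, Egr1 was 0.0887, Egr2 0.0386 and Dusp1 -0.29. With same-number Wt and no 3'-biased array, Egr1 was 0.046, Ier2 0.23 and Dusp1 -0.59. Dusp1 in Ts16 was also -0.23 with the replicate-number block over all arrays, -0.16 without 3'-biased arrays, -0.012 with the covariate and -0.16 to 0.41 without 1 array, and Srf -0.44 to 0.0855 without 1 array. Between Ts13 and Ts16, Egr1 was -0.33 and Ier2 -1.11 with the first-number block, and Ier2 -0.099 to 1.02 without 1 array. Over all trisomic lines, median centring gave Egr1 0.15, Ier3 0.15 and Srf 0.16, quantile normalization Srf 0.0040, leaving out 3'-biased arrays Egr1 0.091, Egr2 -0.24, Ier2 0.17 and Ier3 0.0022, and the covariate Egr1 0.0116, Egr2 -0.27 and Ier3 0.022. Without 1 array, these ranged over -0.098 to 0.077 for Egr1, -0.0798 to 0.48 for Egr2, -0.20 to 0.099 for Ier3 and -0.12 to 0.091 for Srf.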

Other observations

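The spread between Wt lines differed among the serum genes. The median SD over the 9 Wt lines was 0.99 for the 6 tested AP-1 and ATF genes, 0.60 for the 34 other early serum genes and 0.55 for the 9 members, against 0.38 for all tested genes. Egr2 (SD 1.36), Egr1 (0.94) and Ier2 (0.84) exceeded 97.7%, 93.0% and 90.8% of tested genes, while Klf4 (0.36) and Klf6 (0.28) exceeded 45.7% and 28.7%. For Egr1, Egr2 and Ier2, the Wt lines of numbers 89 and 92 lay 1.79, 1.45 and 1.34 below the other Wt lines on average, and for Dusp1 they lay 0.64 above. For Egr2 only Wt replicate 3, at 6.83, was below the 9.20 to 11.61 of the other Wt lines. Wt replicates 1 and 2, at 10.31 and 9.73, lay within that range. The SD of the 15 contractile and cytoskeletal SRF targets had a median of 0.33.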
